A study of Bombus terrestris with 70 samples.

Results

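The change with age in the fat body of egg-removal queens was described across all genes from 12 libraries, 6 taken early and 6 taken late in the life of the cohort, of 68 libraries with values in the series. They were chosen by tissue, treatment and time point alone: fat body, egg removal, time point 2 (TP2) against time point 1 (TP1). Each library came from the fat body of 1 queen of the buff-tailed bumble bee, Bombus terrestris. Queens of the egg-removal treatment had their eggs taken away, which was meant to raise the costs of reproduction. Control queens also had their eggs taken, but got them back, so both treatments shared the disturbance. TP1 is the stage at which 10% of a cohort had died and TP2 the stage at which 60% had died, so age here is defined by cohort deaths, and no age in days was used here. Different queens were sampled at each time point, so genes said below to rise or fall differ between groups of queens. TP2 queens were taken after more of the cohort had died, so age and which queens survived cannot be told apart. The control fat body libraries, 6 at TP1 and 4 at TP2 (replicates 4 and 6 were not analysed here), entered the same model and served for comparison. Queens had been flash-frozen and defrosted before dissection, and stranded mRNA libraries were sequenced on 2 lanes.

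The fat body of insects combines roles that vertebrates divide between liver and adipose tissue. It stores fat and glycogen, secretes most haemolymph proteins, makes antimicrobial peptides such as defensins, and in egg-laying females makes the yolk precursor vitellogenin for uptake by the ovary. Krüppel homolog 1, encoded by Kr-h1, is a zinc-finger transcription factor induced by juvenile hormone, which stimulates reproduction in bumble bees. Identifiers that begin with LOC come without a product name in the tables used here, so most genes below are described by level, by tissue and by change, and not by function.

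Values are the authors' normalized read counts, scaled within each tissue. Estimated depth was 35.5 to 58.3 M reads in egg-removal TP1 and 21.2 to 60.2 M reads in egg-removal TP2, an approximate figure that gives no counting interval per gene. The labelled tissue could be checked with 1 fixed marker, the defensin gene Def, which had a median of 2950 per M of the table total in the fat body, 88.6 in the brain and 4.65 in the ovary. These tables were normalized separately. Egg-removal TP2 replicate 3 had the highest score of its group, 75.4, on the first principal component of the fat body (35.5% of the variance). The other 5 TP2 libraries lay between -38.1 and 23.1 and the TP1 libraries between 21.6 and 94.5. In the check for single outlying queens below, no library value was flagged, this score included. Counts of called genes without this replicate, chosen after its score was seen, are given beside the fat body comparisons. Leaving it out gave the most calls of any single egg-removal library, 1481, against 53 without TP2 replicate 5. In a bulk tissue, fewer cells of a type and less RNA per cell cannot be told apart, and reads shared between an overlapping gene or a close copy and its partner could not be told apart for any gene named.

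The fat body of egg-removal queens changed between TP1 and TP2 in both directions. In a limma fit on log2(value + 1) over all 4 fat body groups, 622 of 10383 genes tested (5.99%) passed a Benjamini-Hochberg adjusted p under 0.05. Of these, 266 rose (2.56%) and 356 fell (3.43%) at TP2. The median log2 change was 0.83 among the genes that rose and -0.75 among those that fell, against 0.04 over all genes tested. A change of at least 1 on the log2 scale was reached by 96 of the genes that rose and 93 of those that fell. The smallest adjusted p was 0.0135, shared by 48 genes, and 2470 genes had an unadjusted p under 0.05. The 6 libraries of one time point lay wholly above the 6 of the other for 83 genes that rose and 63 that fell, where 204 of all genes tested did so (1.96%), 105 higher (1.01%) and 99 lower (0.953%). How many genes were called depended on single queens: the count was 1481 without TP2 replicate 3, but 53 without TP2 replicate 5, 76 without TP1 replicate 3, 106 without TP2 replicate 1, 121 without TP1 replicate 2, 299 without TP2 replicate 4, 351 without TP2 replicate 6 and 370 without TP1 replicate 6. Fitted on the 12 egg-removal libraries alone, 172 of 10229 genes were called (1.68%), 64 higher (0.626%) and 108 lower (1.06%). Each library scaled to the same total gave 1905 calls, 1843 higher and 62 lower, trimmed-mean (TMM) scaling gave 284 higher and 250 lower, and the same total without the 10 highest genes, chosen after seeing the data, gave 266 higher and 106 lower, so the balance of directions is relative to the scaling.

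The genes that fell were mostly genes with high read counts, and the genes that rose mostly had low or middle counts. When genes were ranked by mean normalized read count over the 12 egg-removal libraries, not divided by gene length, the top of 4 equal bins (1470 and above) held 234 of the genes that fell and 25 of those that rose. The lowest bin, under 76.2, held 4 that fell and 65 that rose. The 2 middle bins held 27 and 91 that fell and 106 and 70 that rose, from low to high. The median log2 change ran from 0.38 in the lowest bin to 0.12, -0.04 and -0.16 in the next 3. Ranking by the 10 control libraries, whose means do not enter the contrast, gave medians of 0.32, 0.09, -0.04 and -0.08, with 14, 49, 113 and 180 genes that fell and 49, 94, 85 and 38 that rose. Same-total scaling moved the median of all genes to 0.46. Relative to that shift the 4 medians, ranked on the egg-removal libraries, were 0.24, 0.10, -0.06 and -0.18, so the order of the bins held. Without TP2 replicate 3 the medians by the egg-removal libraries were 0.53, 0.15, -0.05 and -0.20, with 11, 72, 235 and 516 genes that fell and 214, 217, 144 and 72 that rose.

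**Figure D1:**
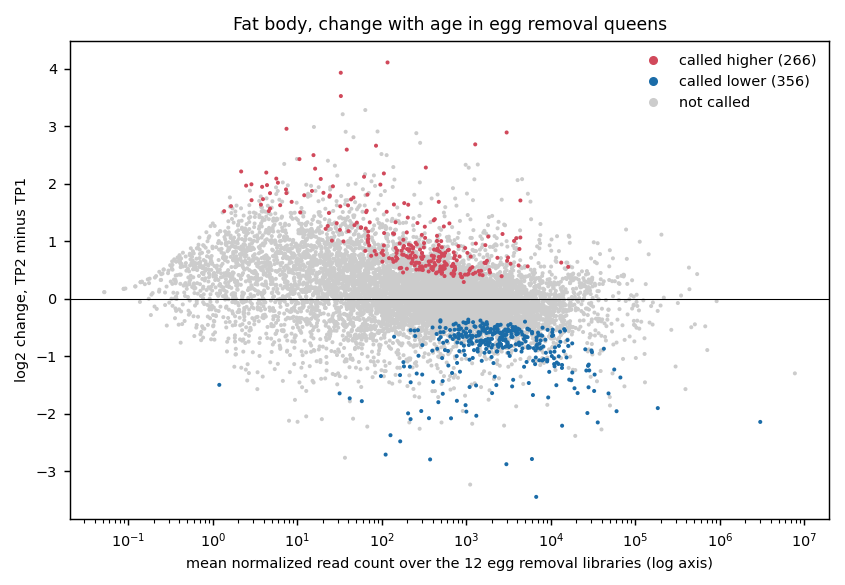
Log2 change of each tested gene (TP2 minus TP1, vertical axis) against its mean normalized read count over the 12 egg-removal fat body libraries (horizontal log axis, not divided by gene length, genes with a mean above 0). Red points are the 266 genes called higher and blue points the 356 called lower; blue points gather to the right and red points in the middle and left.

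The gene with the most reads, LOC100650436, took a smaller part of the library at TP2. It held between 15.7% and 27.4% of the normalized total in the 6 TP1 queens and between 7.06% and 18.9% in the 6 TP2 queens. The means were 22.4% ± 4.30 (SD, n = 6) and 12.7% ± 4.02 (SD, n = 6). This share does not depend on how libraries are scaled. It differed by an exact two-sided permutation test (p = 0.00433, adjusted p = 0.0303 over 7 library values), although the groups overlapped. With 1 library left out, the adjusted p lay between 0.0202 and 0.0606 and was over 0.05 in 9 of 12 cases, while the difference in share stayed between -11 and -8.51 percentage points. The 10 genes with the highest counts, chosen by their mean over these same 12 libraries, together held 36.6% to 46.2% at TP1 and 23.4% to 35.2% at TP2. These 2 ranges did not meet, but the 10 genes did not all lose share. LOC100652170 went from 5.8% to 12.6% at TP1 to 0.948% to 11% at TP2, and LOC100647796 from 1.33% to 2.38% to 0.913% to 1.64%. The ranges moved up for LOC100651168 (1.11% to 2.83%, then 1.31% to 3.55%) and LOC100651094 (0.502% to 1.45%, then 1.01% to 3.19%). The normalized total of a library was 48.4 M ± 5.97 at TP1 and 35.9 M ± 6.75 at TP2 (SD, n = 6 each; exact permutation p = 0.0152, adjusted p = 0.053).

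In normalized read counts, LOC100650436 lay at 6.28, 11, 14.5, 10.2, 12.5 and 10.9 M in TP1 replicates 1 to 6 and at 4.72, 5.16, 5.94, 6.38, 2.18 and 3.18 M in TP2 replicates 1 to 6. TP1 replicate 1 was the low one of its group, just under the highest TP2 queen. The log2 change was -1.30 (SE 0.75) and was not called in limma (Benjamini-Hochberg adjusted p = 0.297). In the fit of the 12 egg-removal libraries alone, the adjusted p was 0.0594. Control queens had lower counts, a mean of 3.08 M at TP1 and 0.362 M at TP2, with a log2 change of -5.06 (SE 0.84, adjusted p = 0.00869). Control TP2 replicates 1, 2, 3 and 5 lay at 0.0114, 0.0704, 0.0312 and 1.33 M, so replicate 5 made most of that mean. This spread also enters the SE of the egg-removal change in the fit of all groups. The difference between the changes, 3.77 on the log2 scale, missed the threshold (adjusted p = 0.0825).

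LOC100652170, the gene with the next highest count, was at 3.93, 5.93, 5.85, 4.01, 2.65 and 4.11 M at TP1 and at 0.608, 1.64, 5.12, 1.78, 0.309 and 0.290 M at TP2, by replicate 1 to 6. TP2 replicate 3 was at the TP1 level and the other 5 TP2 queens were below every TP1 queen. The gene fell by 2.14 on the log2 scale (SE 0.59, limma adjusted p = 0.0368), and the fall was 2.62 without TP2 replicate 3 (adjusted p = 0.00384). It was not called in the fit of the 12 libraries alone (adjusted p = 0.0744), nor without TP1 replicates 2, 3, 4 or 6 or TP2 replicates 1, 5 or 6 in turn (adjusted p 0.0518 to 0.118). Control queens had means of 624700 at TP1 and 452100 at TP2. The other 8 genes among the 10 with the highest counts did not pass the test, with log2 changes between -0.89 for LOC100647796 and 0.54 for LOC100642443. LOC100652170 was also 1 of 46 genes enriched in the fat body, defined by a share of the table total at least 50 times that in both brain and ovary. Of these 46, none rose (0%, against 2.56% of all genes) and 2 fell (4.35%, against 3.43%), the other being LOC100648002 (log2 change -2.15, SE 0.47, adjusted p = 0.0176). Without TP2 replicate 3, 1 rose (2.17%) and 6 fell (13%), against 6.23% and 8.03% of all genes. The median log2 change of the 46 was -0.25, against 0.04 for all genes and -0.16 for the bin of genes with the highest counts. Without TP2 replicate 3 it was -0.09, against 0.05.

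**Figure D2:**
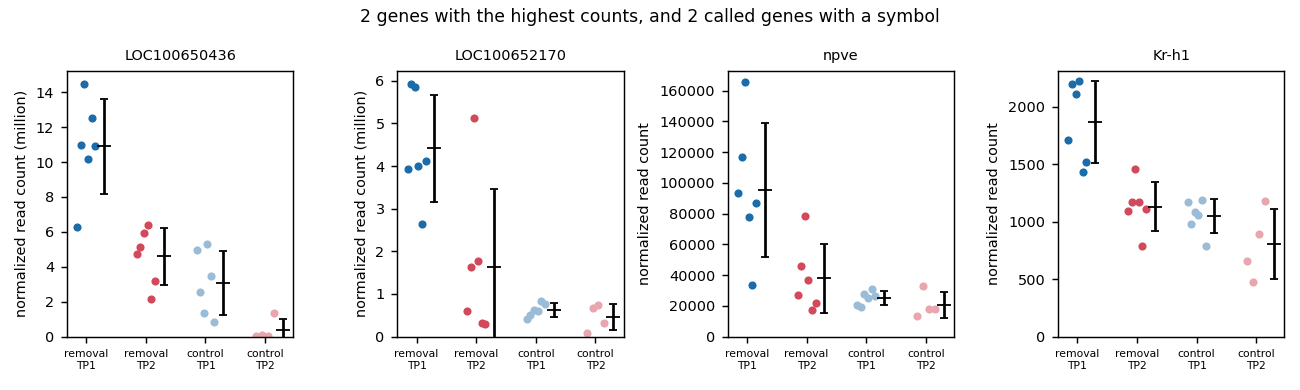
Normalized read counts (linear axes, in M in the left 2 panels) per queen in the 4 fat body groups for the 2 genes with the highest counts, LOC100650436 and LOC100652170, and the called genes npve and Kr-h1; points are queens, ticks the mean and bars the SD. The mean of egg-removal TP1 lies above that of egg-removal TP2 in all 4 panels, and 1 egg-removal TP2 queen lies at 5.12 M for LOC100652170.

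Among genes with a symbol, Kr-h1 and npve fell. Kr-h1 had a lowest, median and highest normalized read count of 1432, 1913 and 2228 in the TP1 queens and 787, 1141 and 1457 in the TP2 queens. A single TP2 queen, replicate 3, was above the lowest TP1 queen. The fall was 0.72 on the log2 scale (SE 0.19, limma adjusted p = 0.0296). It was not called with libraries scaled to the same total (log2 change -0.28, adjusted p = 0.385), where the change relative to the median of all genes was -0.74, against -0.76 as deposited. The adjusted p was 0.137 at the same total without the 10 highest genes. It also lost its call without TP1 replicates 2, 3 or 4 or TP2 replicates 1 or 5 in turn (adjusted p 0.0527 to 0.0964). In control queens Kr-h1 had means of 1046 at TP1 and 803 at TP2 (log2 change -0.45, adjusted p = 0.259), and the difference between treatments did not pass the test (adjusted p = 0.653).

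The npve counts ran from 33830 through a median of 89890 to 165400 at TP1 and from 17590 through 31880 to 78410 at TP2. The groups overlapped, with TP1 replicate 5 low and TP2 replicate 3 high. The log2 change was -1.37 (SE 0.35, adjusted p = 0.028), and the call was lost in the fit of the 12 libraries alone (adjusted p = 0.0761) and without TP1 replicates 2 or 3 or TP2 replicates 1, 5 or 6 in turn (adjusted p 0.0595 to 0.0914). Def, which encodes the antimicrobial peptide defensin, lay between 17210 and 100500 at TP1, with a median of 37240. At TP2 its median was 75890 and its range 15900 to 756500, the top value being replicate 2. The log2 change of 0.99 (SE 0.77) did not pass the test (adjusted p = 0.446). The sex-determination gene fem had medians of 1540 and 1910 and a log2 change of 0.30 (SE 0.28, adjusted p = 0.529). Of the 9 genes tested whose symbol does not begin with LOC, the 2 named above fell, none rose, and Mpk, VSP, F1, F2 and F3 were not called, with log2 changes from -0.57 (Mpk) to 1.09 (F2).

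Among the genes that rose, the 12 with the smallest p shared an adjusted p of 0.0135. Control values beside them use the same fit, and early egg-removal queens enter each difference from them. LOC100645830 had a lowest, median and highest count of 268, 319.9 and 434 at TP1 and 467, 617 and 794 at TP2, so all 6 late queens lay above all 6 early ones. It rose by 0.94 on the log2 scale (SE 0.15, adjusted p = 0.0135 in limma), and control means were 719 at TP1 and 675 at TP2. LOC100651474 lay between 13.7 and 21.9 at TP1 (median 19.1) and between 35.1 and 87.4 at TP2 (median 66.7). It rose by 1.63 (SE 0.27), again with no overlap. This is a gene with a larger share of the brain table, a median of 59.2 per M there and 1.42 in the fat body.

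LOC100644482 ranged from 646 to 1088 at TP1 (median 894) and from 1200 to 2232 at TP2 (median 1686). It rose by 0.96 (SE 0.17), and its control means were 2180 at TP1 and 1871 at TP2. LOC100648016 was at 288, 348 and 485 (lowest, median and highest) and then at 471, 720.4 and 755. The lowest late queen lay just under the highest early queen, and the gene rose by 0.90 (SE 0.16). LOC100643212 had counts of 158 to 335 at TP1 (median 209.8) and 374 to 1047 at TP2 (median 550.4), without overlap. Its rise was 1.37 (SE 0.25).

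LOC100646832 was near the lower limit of the data. It ran from 0 to 1.10 at TP1 (median 0.51) and from 4.66 to 32.4 at TP2 (median 5.95). All late queens exceeded all early queens, and the fitted log2 change of 2.96 (SE 0.53) depends on the value of 1 added before the logarithm. The 6 next genes by p rose by between 0.74 (LOC100645330) and 2.26 (LOC100644476). LOC100644476 was another gene with a higher share in the brain, 137 per M against 0.69 in the fat body, and its fat body counts were 2.37 to 8.31 at TP1 and 13.2 to 62.1 at TP2. LOC100650605, LOC100649058, LOC110119568 and LOC100651650 completed the 12.

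**Figure D3:**
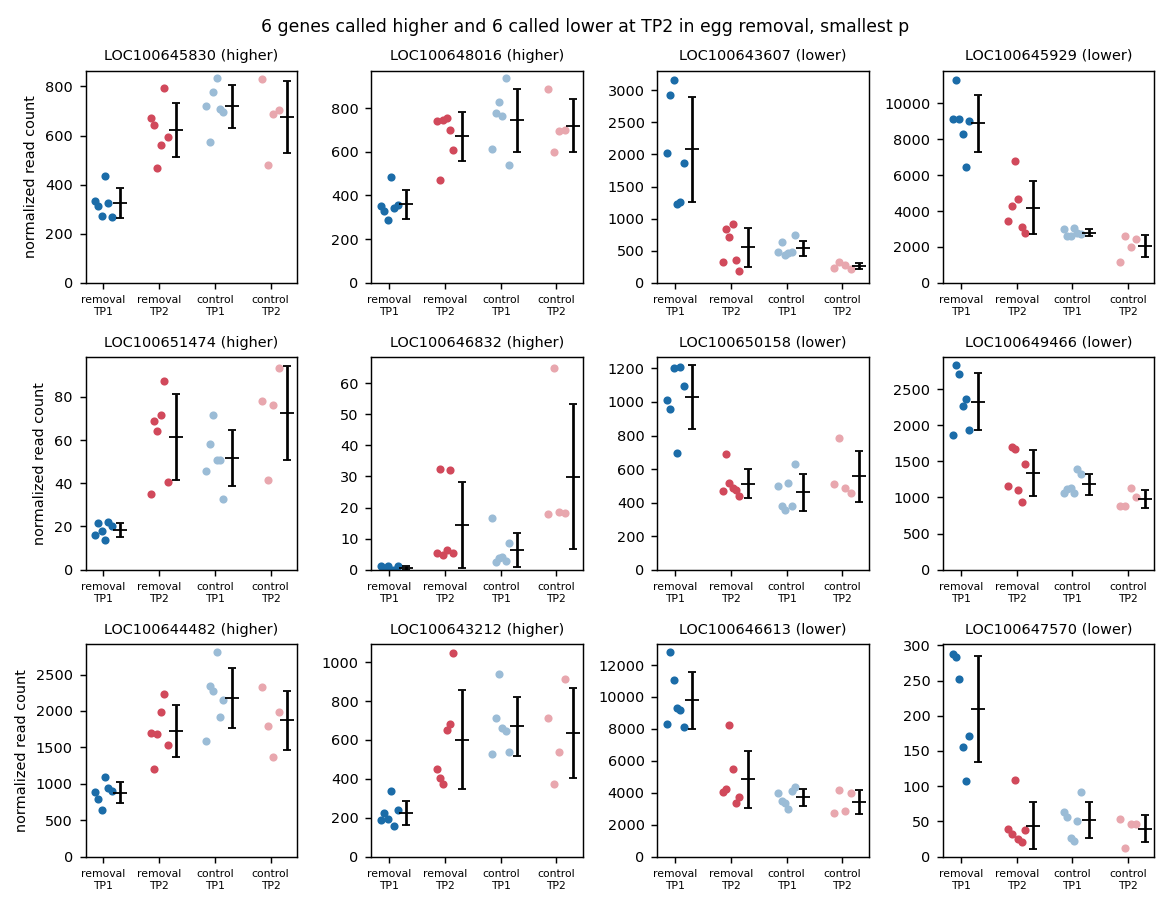
Normalized read counts (linear axes from 0) per queen in the 4 fat body groups for the 6 genes called higher and the 6 called lower at TP2 with the smallest p; points are queens, ticks the mean and bars the SD. For LOC100645830 the 6 early egg-removal queens lie at 268 to 434 and the 6 late ones at 467 to 794, with control means of 719 and 675.

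Among the genes that fell, the 12 with the smallest p had that same adjusted p. LOC100643607 lay between 1234 and 3157 at TP1 (median 1940) and between 178 and 911 at TP2 (median 534), with no overlap. It fell by 2.03 on the log2 scale (SE 0.33, limma adjusted p = 0.0135), and control means were 539 at TP1 and 261 at TP2. It too had a larger share of the brain table, 328 per M against 17.0 in the fat body. LOC100650158 went from 697, 1054 and 1211 (lowest, median, highest) to 439, 482 and 687. All early queens stayed above all late ones, if narrowly, and the log2 change was -0.995 (SE 0.17). Its control means were 460.3 and 558.

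LOC100646613 had counts of 8088 to 12790 at TP1 (median 9227) and 3327 to 8215 at TP2 (median 4110.0). The top late queen met the range of the early ones, and the log2 change was -1.07 (SE 0.19). LOC100645929 lay between 6442 and 11320 at TP1 (median 9069) and between 2760 and 6812 at TP2 (median 3861). It fell by 1.14 (SE 0.20), again with 1 overlap at the edge of the ranges. LOC100649466 was at 1864, 2311 and 2839 and then at 943, 1314 and 1697, without overlap, a fall of 0.81 (SE 0.15). LOC100647570 was between 108 and 288 at TP1 (median 212) and between 20.3 and 109 at TP2 (median 35.2). A single late queen reached the early range, and the log2 change was -2.37 (SE 0.43). The 6 genes next by p fell by between 0.70 (LOC100648974) and 1.80 (LOC100645512), and also held LOC100651285, LOC100650541, LOC100648913 and LOC100649371. All 24 genes, chosen for their small p, kept their call in each fit that left out 1 egg-removal library. They did so narrowly, with a largest adjusted p of 0.0494 or 0.0498 for each gene. With libraries scaled to the same total LOC100649466, LOC100651285, LOC100648974, LOC100650541 and LOC100648913 lost their call (adjusted p 0.0827 to 0.205).

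The widest changes, among genes with a mean of at least 50 over the 12 libraries, came from genes that varied much between queens. LOC110119724 had a normalized read count of 1.04 to 9.99 at TP1 (median 5.94) and 16.5 to 651 at TP2 (median 94.2). The groups did not overlap, although TP2 queens spanned from 16.5 in replicate 4 to 651 in replicate 5, and the gene rose by 4.11 (SE 0.90, adjusted p = 0.0176). LOC100650692 rose by 2.89 (SE 0.74, adjusted p = 0.0288), from a median of 363 to one of 3677, with TP1 replicate 5 at 5657. LOC100643151 rose by 2.69 (SE 0.72, adjusted p = 0.035), from a median of 219 to one of 1813. LOC100645551 fell by 3.44 (SE 0.68, adjusted p = 0.0135), from a TP1 range of 3251 to 21550 (median 11980) to a TP2 range of 347 to 3820 (median 861). LOC100651790 fell by 2.87 (SE 0.76, adjusted p = 0.0327), from a median of 4734 to one of 855. LOC100643765 fell by 2.79 (SE 0.72, adjusted p = 0.0296), from a median of 587 to one of 46.9, with TP2 replicate 3 at 585. LOC100650692, LOC100651790 and LOC100643765 were not called in the fit of the 12 libraries alone (adjusted p 0.0649 to 0.0795). LOC100645551 kept its call in each fit that left out 1 egg-removal library, narrowly (largest adjusted p 0.0498). The other 5 lost theirs without TP1 replicate 3 or TP2 replicates 1 or 5 in turn, and all but LOC110119724 also without TP1 replicate 2 or TP2 replicates 4 or 6. TP1 replicates 4 and 6 and, for LOC100643151, TP1 replicate 5 decided some of these calls as well (adjusted p 0.0501 to 0.106 over all such fits). LOC100643151 was also not called with depth as a covariate (adjusted p = 0.058).

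The queens of each time point were unequal in how far their values lay in the direction of these changes. Of the 622 genes, TP2 replicate 5 lay beyond the whole TP1 range, in the direction of the change, for 98.9%, replicate 1 for 96.5%, replicate 4 for 91.5%, replicate 6 for 87.8% and replicate 2 for 73.5%. TP2 replicate 3 did so for 45.0%. Among TP1 queens, replicates 3 and 2 lay beyond the TP2 range for 90.7% and 89.4%, replicates 6 and 4 for 69.8% and 69.3%, and replicates 5 and 1 for 60.0% and 55.6%. These shares describe the libraries that chose the genes and are no separate evidence. The median over genes of the SD of log2 values was 0.34 at TP1 and 0.42 at TP2, and 64.2% of genes had the larger SD at TP2. The median distance of a library to its group median was 0.19 at TP1 and 0.25 at TP2 on the log2 scale (exact permutation p = 0.0866, adjusted p = 0.121 over 7 library values). On the first principal component the time points did not differ past the threshold (exact permutation p = 0.0541, adjusted p = 0.121), but did without TP2 replicate 3 (adjusted p = 0.0202). That replicate was singled out by this same score after it was seen, so the test without it is no separate evidence.

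**Figure D4:**
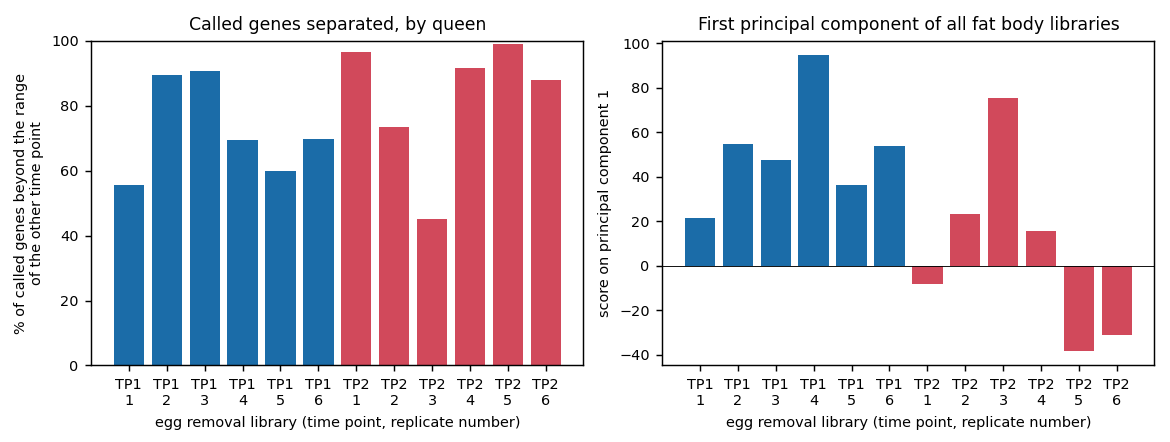
Left, percent of the 622 called genes for which an egg-removal queen lies beyond the whole range of the other time point, in the direction of the change; right, its score on the first principal component of all fat body libraries. TP2 replicate 3 has the shortest bar at the left (45.0%) and, at 75.4, a score within the TP1 range at the right.

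Genes of other tissues were followed as a check on dissection. The 386 genes enriched in the brain made up 0.0229% to 0.0589% of the total at TP1 and 0.0279% to 0.0901% at TP2. Of the 384 that were tested, 5 rose (1.3%) and 1 fell (0.26%), against 2.56% and 3.43% of all genes. Their median log2 change was 0.39, against 0.04 for all genes and 0.38 for the bin of genes with the lowest counts. Their summed share did not differ past the threshold (exact permutation p = 0.0736, adjusted p = 0.121), but did without TP2 replicate 3 (adjusted p = 0.0455), where 24 of the 384 rose (6.25%) and 1 fell, against 6.23% and 8.03% of all genes. TP2 replicate 3 held the lowest TP2 share, so leaving it out widens the difference in share by construction. The part of the brain-enriched genes in the rise of genes with low counts was not tested. The 351 genes enriched in the ovary made up 0.0499% to 0.158% at TP1 and 0.0546% to 0.122% at TP2 (exact permutation p = 0.968), with none called and a median log2 change of -0.23. Without TP2 replicate 3, 3 of them rose and 2 fell. A higher share of the total in brain than in fat body was found for 87.3% of the genes that rose, 65.5% of those that fell and 77.3% of all genes. Estimated depth was 49.3 M ± 8.08 reads at TP1 and 39.7 M ± 15.8 at TP2 (SD, n = 6 each, exact permutation p = 0.21). TP2 replicates 1, 5 and 6 lay at 29.7, 21.2 and 27.5 M, below every TP1 library, and replicates 2, 3 and 4 at 45.2, 60.2 and 54.1 M. The shallowest, replicate 5, lay beyond the TP1 range for the most called genes (98.9%) and the deepest, replicate 3, for the fewest (45.0%). Whether depth plays a part in this was not tested. With depth as a covariate 494 genes were called, 440 of them among the 622.

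Control queens were compared between the same stages of cohort deaths, 10% and 60%, with 6 and 4 libraries. Whether these stages lay equally far apart in days in both treatments is not shown here. There 129 genes were called (1.24%), 49 higher and 80 lower. This count was 10, 13 and 20 without control TP2 replicates 2, 1 and 3, and 644 without control TP2 replicate 5. It was 30, 42, 42 and 73 without control TP1 replicates 2, 3, 4 and 1, 71 and 85 without egg-removal TP1 replicates 2 and 6, and 174 without egg-removal TP2 replicate 3. Fitted on the control libraries alone, limma called none, with 1738 genes at an unadjusted p under 0.05. The 2 age contrasts share no library, but do share 1 estimate of the spread. They had 15 called genes in common, 2.41% of the egg-removal list and 11.6% of the control list. Over all genes tested, 1.24% were called in control and 5.99% in egg removal. Of the 15 genes, 13 moved the same way. Without egg-removal TP2 replicate 3 both lists were longer, 1481 and 174 genes, and they had 37 in common, of which 30 moved the same way. These were 2.5% of that egg-removal list and 21.3% of that control list. In that fit 6.23% of all genes rose and 8.03% fell in egg removal. Higher late in both treatments were LOC110119568, LOC105666021, LOC100651020, LOC100650708, LOC100647919 and LOC100643262. LOC110119568 rose by 1.78 (SE 0.34) in egg removal, from 10.4 ± 3.88 to 37.9 ± 11.7 (SD, n = 6), and by 2.06 (SE 0.38) in control, from a mean of 36.3 to one of 136.8. Lower late in both were LOC105665920, LOC100645551, LOC100651040, LOC100648002, LOC100643962, LOC100651460 and LOC100643382. LOC100645551 fell by 3.44 in egg removal and had a log2 change of -3.10 in control (adjusted p = 0.0484), where its means were 1174 and 198. LOC100644103 and LOC100650795 rose in egg removal, by 0.59 and 0.71, and fell in control, by 0.71 and 0.91. Over all 266 genes that rose in egg removal the median change in control was -0.06, and over the 356 that fell it was -0.10, against -0.01 for all genes.

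Whether the treatments differed in their change with age was tested in its own contrast. It passed for 109 genes (1.05%): the egg-removal change was above the control change for 83 genes (0.799%) and below it for 26 (0.25%), a split that same-total scaling turned into 544 and 7. LOC100647993 rose in egg removal, from a mean of 1767 ± 267 to one of 2912 ± 571 (SD, n = 6), while control means were 3171 and 2240.0. The difference was 1.23 on the log2 scale (SE 0.21, limma adjusted p = 0.0265). LOC100645118 went from 177 ± 41.7 to 343 ± 82.5 in egg removal, with control means of 432 and 269, a difference of 1.61 (SE 0.29). LOC110119460, listed as a pseudogene by RefSeq, did not pass the age test in egg removal (log2 change 0.42, adjusted p = 0.626) and fell by 3.63 in control, a difference of 4.05 (SE 0.72).

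In the opposite direction, LOC100645716 fell from 1018 ± 401 to 304 ± 305 in egg removal, with TP2 replicate 3 at 907, and had control means of 205 and 489. The difference was -3.23 (SE 0.62, adjusted p = 0.0265). LOC100645750 went from 1775 ± 112 to 1333 ± 201, with control means of 1158 and 1594, a difference of -0.88 (SE 0.16). With libraries at the same total its log2 change in egg removal was 0.02 (adjusted p = 0.942), or -0.45 relative to the median of all genes. LOC100644970 did not pass the age test in egg removal (log2 change -0.33, adjusted p = 0.225) and rose by 0.92 in control, a difference of -1.25 (SE 0.25). The count of 109 rests on single queens. In limma no gene passed when replicate 3 of control TP2, replicate 3 of egg-removal TP1 or replicate 1, 4 or 5 of egg-removal TP2 was left out, with 1659 to 1719 genes at an unadjusted p under 0.05, and 4 passed without egg-removal TP1 replicate 2. The count was 33, 34 and 49 without control TP1 replicates 3, 2 and 4, 58 and 72 without egg-removal TP1 replicates 6 and 5, and 71 without control TP2 replicate 2. Higher counts came without egg-removal TP2 replicate 6 (182), control TP2 replicate 5 (319), egg-removal TP2 replicate 2 (323) and egg-removal TP2 replicate 3 (475).

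**Figure D5:**
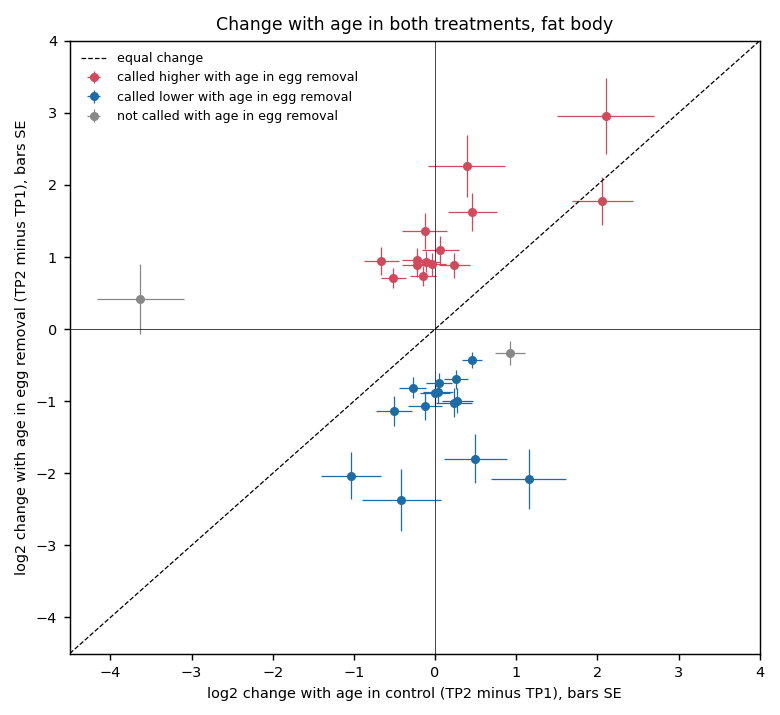
Log2 change with age in egg removal (vertical axis) against that in control (horizontal axis) for the 12 genes of smallest p on either side and the 6 genes named for the difference between treatments; points are estimates, bars their SE, and the dashed line marks equal change. LOC110119568, at 1.78 and 2.06, lies near the line, and LOC110119460, at 0.42 and -3.63, far from it.

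The brain and ovary of egg-removal queens gave few calls under the same contrast. The brain had 5 calls (0.0481%), each a rise, and 1 of these genes, LOC100648333, was among the 622. This gene rose in the fat body by 1.25 (SE 0.35, adjusted p = 0.037), from 177 ± 32.6 to 469.7 ± 229 (SD, n = 6), and in the brain by 1.13 (adjusted p = 0.00288). Its fat body call was lost in the fit of the 12 libraries alone (adjusted p = 0.0517). The brain count was 24 without the brain library of egg-removal TP1 replicate 5. Fitted on the 2 brain groups alone, limma called none, with 641 genes at an unadjusted p under 0.05, and library weights gave 46 calls, 31 higher and 15 lower. Of 618 fat body genes also tested in the brain, 67 had an unadjusted p under 0.05 in the same direction there and 5 in the opposite one, together 11.7%, where 5.85% of all genes had such a p. In the ovary limma called no gene, with 286 genes at an unadjusted p under 0.05 and 227 calls under library weights. The 2 ovary groups alone also gave no call, with 1466 genes at such a p. Of 616 fat body genes tested there, 17 had such a p in the fit of all 4 ovary groups in the same and 2 in the opposite direction, 3.08% against 2.68% of all genes. Whether the change with age differed between tissues was not tested.

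Genes that changed were also placed in the gene order of RefSeq assembly iyBomTerr1.2, used for neighbourhood alone. Of the genes tested, 9705 (93.5%) were placed, and 597 of these (6.15%) were called. Adjacent here means next among the placed genes, so genes that were not tested may lie between them. How many called pairs or runs this share alone would give was not computed. Among 9686 adjacent pairs, 53 had both genes called, 36 in the same direction and 17 in opposite ones. There were 3 runs of 3 neighbours. LOC100643985, LOC100644103 and LOC100644224 rose, by 0.51, 0.59 and 1.32. LOC100642757, LOC100643652 and LOC100651007 fell, by 1.07, 0.67 and 0.60, and LOC100644646, LOC100644768 and LOC100644410 fell, by 0.52, 0.70 and 0.82. Adjacent to LOC100651790, LOC100651595 fell by 2.78 (SE 0.80, adjusted p = 0.0446), from 10640 ± 7310 to 1347 ± 1010 (SD, n = 6), with TP1 replicate 5 at 883, below 4 of the 6 TP2 queens at 1069 to 3205. In the fit of the 12 libraries alone, LOC100651595 was not called (adjusted p = 0.0726), and of the 9 genes in runs LOC100644410 kept its call (adjusted p = 0.0476) while the other 8 lost theirs (adjusted p 0.0514 to 0.0806). Whether such neighbours share reads was not tested. By RefSeq class, 244 of 9590 protein-coding genes rose (2.54%) and 345 fell (3.6%), and 3 of 53 long non-coding RNAs rose (5.66%) and 1 fell (1.89%), against 2.56% and 3.43% of all genes. Of 678 genes with no RefSeq entry, 17 rose (2.51%) and 8 fell (1.18%).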

How the data were processed

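Signal values, which are normalized read counts with decimals, were used as deposited by the authors, in 1 table per tissue. Their scaling within a tissue, by medians of ratios, was read from the values, and whole reads were not recovered. The submitters' processing notes name kallisto 0.46.1, DESeq2 1.28.1 and R 4.0.1 without giving their roles. The build, the annotation, the filter applied and whether strand was used in counting: not given in the sources used here.

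A gene was tested if any group mean reached 1, as it did for 10383 of 10432 genes. Group means were fitted to log2(value + 1) over the 22 fat body libraries by limma 3.58.1, run under R 4.3.3 and statmod 1.5.0, and the prior variance was trended and robust. P-values are two-sided and adjusted over all genes tested with the Benjamini-Hochberg method. Brain and ovary were fitted in the same way in their own tables. Library values were compared by exact two-sided permutation tests, adjusted over 7 values. Depth was estimated from the total and the smallest positive values of each library, taken as the worth of 1 read. TMM factors were computed from the published formula and served for scaling alone.

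Genes enriched in a tissue had a share of the table total at least 50 times that in the fat body (for fat body genes, that in both other tissues) and a median of at least 100. Named genes were the 12 with the smallest p in each direction, the 3 with the largest change in each direction with a mean of at least 50, called genes with a symbol, the 10 with the highest counts, listed genes, and the 3 with the smallest p in each direction for the difference between treatments. LOC100648333, the genes called in both treatments and the gene neighbours were chosen after their values were seen. Genes, lists and tests were chosen with earlier results of these data known. Of 13 gene lists, symbols matched only Kr-h1, Def, fem and 6 unlisted symbols, and no promoter sequence was at hand, so motif searches were not made.

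Queens with the same replicate number did not deviate together (correlations of residuals between TP1 and TP2 from -0.0743 to 0.15), so the numbers were not used to pair them. Nothing in the labels beyond single queens describes how queens were drawn. In 5 simulated sets of 10299 genes with 200 changed, the fit of the egg-removal age contrast found 67.8% of the genes given a log2 change of 1 and 91.2% of those given 2, with 5.01% of calls false. The simulated noise was normal and independent between genes and libraries, and only genes with a mean log2 value above 5 were changed. Deviations that a queen shares across genes were not simulated, so these rates need not hold for the genes called here.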

Additional observations from a re-analysis of the deposited data

Results flagged for a closer look

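A check for single outlying queens covered 114 groups of values of egg-removal queens (50 named genes and 7 library values at 2 time points). Named genes were checked on the log2 scale and library values as they stood. In 3 groups, each of a named gene, 1 queen lay far from the others of its group. Chance alone gives about 1 such group in 20. LOC100650158 was at 687.1 in TP2 replicate 2, against 439.2 to 518.3 in the other 5 queens. LOC100650692 was at 5657 in TP1 replicate 5, against 236.3 to 413 in the others. LOC100643765 was at 584.7 in TP2 replicate 3, against 25.29 to 59.54.

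For 14 named genes the change with age differed between egg removal and control by a test of the difference in limma (adjusted p under 0.05). More positive in egg removal, as log2 differences, were LOC100645830 (1.044), LOC100644482 (1.187), LOC100649058 (1.105), LOC100645330 (0.8808), LOC100647993 (1.23), LOC110119460 (4.047) and LOC100645118 (1.607). More negative were LOC100650158 (-1.27), LOC100648974 (-0.9539), LOC100645512 (-2.293), LOC100649371 (-1.251), LOC100645750 (-0.8751), LOC100645716 (-3.232) and LOC100644970 (-1.252). The last 3 of each direction were named for this difference, so their values are a description. The others were named for the smallest p of the egg-removal change. That change is a part of the difference, so their values are no separate evidence either.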

How the results depend on the processing

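The count of 622 lay between 53 and 1481 with 1 egg-removal library left out. It was 172 for the 2 groups alone, 1905 at the same total (1843 higher, 62 lower; 328 of the 622 among them), 2141 with library weights and 189 at an absolute log2 change of at least 1. Other pseudocounts and filters, TMM, no trend and a depth covariate gave 494 to 639. Chosen after seeing the data, leaving out TP2 replicates 3 and 5 together gave 611, and the same total without the 10 highest genes gave 372 (266 higher, 106 lower, median of all genes 0.19). Control age (129) lay between 10 and 644 without single libraries, and gave 0 for the 2 groups alone, 37 at the same total, 1418 with weights and 715 with depth. The difference between treatments (109) lay between 0 and 475, and gave 551 at the same total, 1835 with weights and 254 with depth; it cannot be fitted on 2 groups. The brain count (5) lay between 4 and 24 without single egg-removal libraries, and gave 0 for 2 groups and 46 with weights. The ovary count stayed at 0 without any single egg-removal library and for 2 groups and was 227 with weights. With replicate number as a block, without evidence that numbers pair queens, counts were 582 (502 of the 622), 15 in control and 69 for the difference between treatments; of the 6 numbers only replicate 5 correlated best with its own. Of 37 called named genes, 37 kept the call under the block, both pseudocounts, both filters, TMM, weights and no trend, and at least 28 did without any single library. At the same total 6 lost it and LOC100645750 changed sign, to 0.0169; relative to the median of all genes all 37 kept their sign. Without single libraries, differences between time points were -11 to -8.51 percentage points for the share of LOC100650436, -14.6 to -10.8 M for the total, -13.8 to -5.98 M for depth, -59.1 to -36.4 for the first component, 0.0169 to 0.0293 and -0.00944 to 0.0121 percentage points for brain- and ovary-enriched genes, and 0.0318 to 0.0755 for the distance to the group median. Causes of these shifts were not tested. Depth is approximate, so the counting error of low genes such as LOC100646832 is unknown.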

Other observations

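Further genes enriched in the fat body did not pass the test but had small unadjusted p-values. LOC100642488 was at 520.2 ± 246 early and 1062 ± 431 late (SD, n = 6; limma log2 change 1.06, adjusted p = 0.0519). LOC100651231 was at 375 ± 335 and 1595 ± 1010 (2.33, adjusted p = 0.0521), and LOC100651254 at 10820.0 ± 4160 and 5452 ± 1610 (-0.93, adjusted p = 0.0612). Of the 46 genes enriched in the fat body, 4 had an unadjusted p under 0.05 with a higher estimate (8.7%) and 11 with a lower one (23.9%), against 11.4% and 12.4% of all genes tested.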
